A study of Mus musculus with 6 samples.

Results

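The chains of the receptors for IL-4, IL-13 and IL-17, with the signal transducer *Stat6*, were compared between IL-11+ and IL-11- fibroblasts of the inflamed mouse colon. Members were chosen by gene symbol from a list of 8, namely *Il13ra1*, *Il13ra2*, *Il4ra*, *Stat6*, *Il17ra*, *Il17rc*, *Il17rd* and *Il17re*. Values were read for 7 of the 8 among 20327 gene symbols, and *Il17re* was not analysed here. These 7 genes passed the filter on low tag numbers (10 tags or more in 3 or more libraries), as did 9334 genes in all, and *Il13ra2* passed it only through its tags in IL-11+ fibroblasts.

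The study asked how fibroblasts that switch on *Il11* in colitis differ from their neighbors. Male *Il11-Egfp* reporter mice of the C57BL/6 strain, aged 9 to 15 weeks, drank 1.5% dextran sulfate sodium (DSS, which injures the colonic epithelium) for 5 days, and colon cells were sorted on day 7. Cells without Ter119, CD45, CD31 and EpCAM on their surface were divided by EGFP into an EGFP+ group (IL-11+ fibroblasts, n = 3 libraries) and an EGFP- group (IL-11- fibroblasts, n = 3 libraries). The name fibroblasts is the study's, and its methods give no fibroblast marker for this sort. Markers of smooth muscle, pericytes and interstitial cells of Cajal were in sum higher in the EGFP- group (below), which is thus a mixture of cells. Genotype, strain, DSS treatment, age range and day were the same in both groups, and colons of untreated mice were not used here. The reporter is a bacterial artificial chromosome with *Egfp* placed in *Il11*, and 1 transgenic line was selected for it, so EGFP stands for the activity of that transgene. By the study's methods the sort did not reach full purity.

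RNA was measured by 5′Tag-seq, which counts tags from the 5′ side of polyA transcripts. The libraries held 1057170, 1078179 and 1169817 tags for IL-11- fibroblasts against 1046538, 1022851 and 1049048 for IL-11+ fibroblasts (here and below, values of single libraries follow the order of replicates 1, 2 and 3). At this depth 3 tags stand at 2.56 to 2.93 CPM (tags relative to the total of the library), and a receptor gene with a few tags is measured coarsely. Counting intervals given below leave out error other than that of counting, since PCR copies of 1 molecule can give several tags. The sort was checked by *Il11*, which had 28, 51 and 89 tags in IL-11- against 1357, 732 and 2658 in IL-11+ libraries. The groups were far apart for it (log2 fold change 4.98, SE 0.393, adjusted p = 1.01e-07).

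IL-13 binds IL-13Rα1 with low affinity and then recruits IL-4Rα, and this pair, which IL-4 also uses on cells outside the blood lineage, activates JAK kinases and STAT6. IL-13Rα2 binds IL-13 with high affinity, has a short cytoplasmic tail and is best known as a decoy that takes up IL-13. IL-17A and IL-17F act on IL-17RA paired with IL-17RC, through the adaptor Act1 and TRAF6, and in fibroblasts they are known for inducing neutrophil chemokines and matrix metalloproteinases.

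Among the 7 tested genes, *Il13ra2* was the 1 gene called higher in IL-11+ fibroblasts by edgeR (fold change over 2 at an adjusted p under 0.05), beside 3.44% of all tested genes (321 genes). None was called lower (0 of 7), beside 6.37% of all tested genes (595 genes). At an unadjusted p under 0.05, 3 of the 7 were higher and 0 lower, beside 12.2% and 14.5% of all tested genes. DESeq2 called 1 of the 7 higher and 0 lower, beside 3.04% and 5.17%. By the adjusted p alone 2 of the 7 were higher and 0 lower, beside 6.84% and 8.7% of all tested genes. Groups stood apart without overlap for 2 genes that were above in IL-11+ fibroblasts (*Il13ra2* and *Il13ra1*) and for 1 that was below (*Stat6*), beside 14.5% and 16.7% of all tested genes. Over the 7 genes the median difference on the log2 scale was -0.04, beside -0.01 over all tested genes.

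*Il13ra2*, the gene of the high-affinity IL-13 receptor, had 1 tag in each IL-11- library against 19, 24 and 22 in the IL-11+ libraries. It was under the floor of 3 tags in the IL-11- group and at a similar level in each IL-11+ library, so the groups did not overlap. In normalized CPM (CPM after TMM scaling of the libraries), it went from 0.906 ± 0.0738 to 21.8 ± 2.24 (SD, n = 3). With 1 tag in each IL-11- library, the SD of that group comes from library scaling alone and does not measure the precision of the level. The summed tags, 3 against 65, gave a ratio of 24.2 after scaling, with a 95% exact binomial interval of 7.93 to 120. The fitted log2 fold change was 4.43 (SE 0.528, 95% interval 3.32 to 5.53, adjusted p = 9.35e-06, higher in 3 of 3 libraries), and this fitted value depends on how the test treats a group with so few tags. In bulk samples such as these, fewer cells that express a gene and less RNA per cell cannot be told apart. The study had already reported *Il13ra2* as elevated in IL-11+ fibroblasts by RNA sequencing of such sorted cells, so this result is not independent of it.

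*Il13ra1*, the signaling chain for IL-13, had 70, 84 and 85 tags in IL-11- against 156, 141 and 115 in IL-11+ libraries. Each IL-11+ library was above each IL-11- library, with IL-11+ replicate 3 the nearest to the other group. The means were 71.9 ± 6.42 and 139 ± 28.0 normalized CPM (SD, n = 3). The fold change of 1.93 (log2 0.95, SE 0.188, 95% interval 0.56 to 1.35, adjusted p = 0.00143) lay under the fold threshold of 2, and the gene was not called. It was called without IL-11- replicate 2 (log2 fold change 1.03) and without IL-11+ replicate 3 (1.10).

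*Il4ra*, the chain that IL-4 and IL-13 share, had 93, 80 and 82 tags in IL-11- against 145, 86 and 107 in IL-11+ libraries. IL-11+ replicate 1 was high, and IL-11+ replicate 2 was below IL-11- replicate 1 in normalized CPM (87.3 against 88.8), so the groups overlapped. The means were 77.2 ± 10.8 and 114 ± 34.9 normalized CPM (SD, n = 3), which on the log2 scale is a difference of 0.57 (SE 0.211, 95% interval 0.12 to 1.01, adjusted p = 0.0804). In a fit blocked by replicate number the adjusted p was 0.0178, still under a fold change of 2. Without IL-11+ replicate 1 the log2 fold change was 0.31 (adjusted p = 0.401), and without IL-11+ replicate 2 it was 0.73 (adjusted p = 0.0434). With no filter on low genes the adjusted p was 0.0309, and over the 16 alternatives it ran from 0.0178 to 0.401, with no call in any of them.

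*Stat6*, the transcription factor that this receptor activates, had 65, 71 and 87 tags in IL-11- against 37, 48 and 63 in IL-11+ libraries. After scaling, each IL-11+ library was below each IL-11- library, and IL-11+ replicate 3 (60.1 normalized CPM) lay just under IL-11- replicate 1 (62.1). The means were 66.8 ± 4.69 and 49.3 ± 10.4 normalized CPM (SD, n = 3). The difference did not pass the test (log2 fold change -0.43, SE 0.208, 95% interval -0.87 to 0.0037, adjusted p = 0.191), and it was -0.29 without IL-11+ replicate 1.

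**Figure D1:**
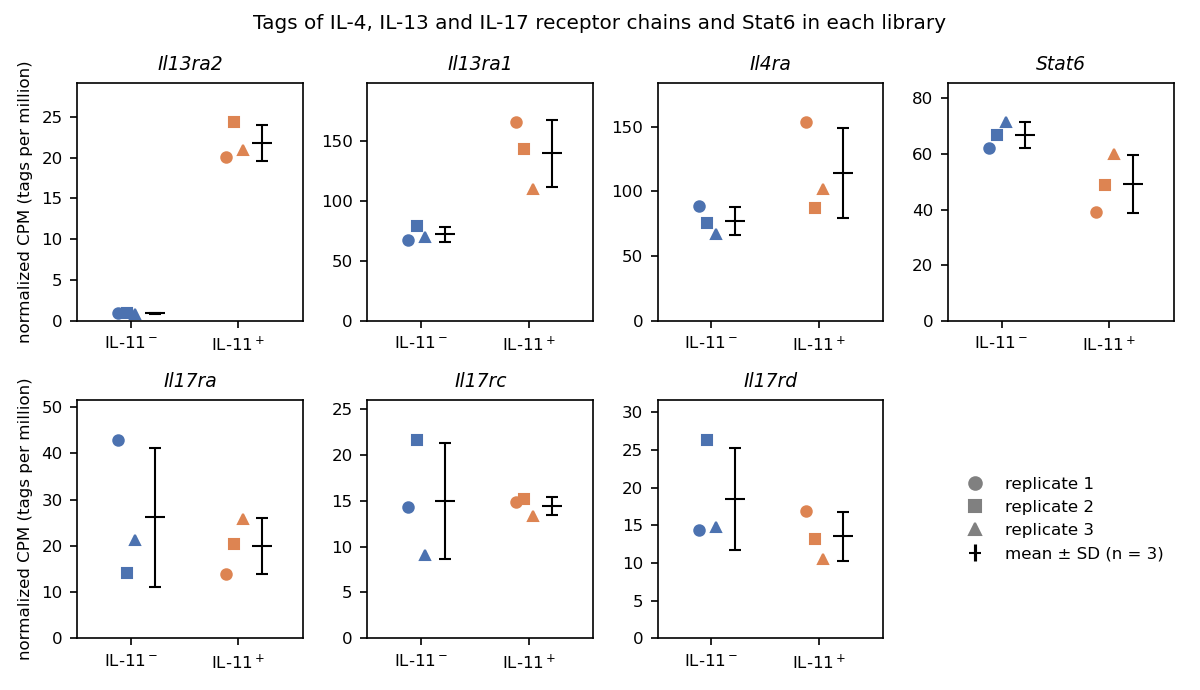
Normalized CPM (vertical axes, each from 0) of 7 genes in the 3 IL-11- (blue) and 3 IL-11+ (orange) libraries, with the replicate number as the marker shape and the mean ± SD of each group (n = 3) beside the points. *Il13ra2* stands at 0.821 to 0.955 in IL-11- (1 tag in each library) and at 20.1 to 24.4 in IL-11+ fibroblasts, and the groups overlap for *Il4ra*, *Il17ra*, *Il17rc* and *Il17rd*.

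The balance of the IL-13 binding chains was read from the tags of *Il13ra1* and *Il13ra2* together. *Il13ra2* made up 1.41%, 1.176% and 1.16% of them in IL-11- replicates 1, 2 and 3, where the exact binomial 95% intervals reached up to 7.60%, 6.38% and 6.31%. It made up 10.9% (6.66% to 16.4%), 14.5% (9.55% to 20.9%) and 16.1% (10.3% to 23.3%) in IL-11+ replicates 1, 2 and 3. The mean share was thus 1.25% ± 0.138 without EGFP and 13.8% ± 2.68 with it (SD, n = 3). The SD without EGFP comes from the tags of *Il13ra1* alone, since *Il13ra2* had 1 tag in each of those libraries. A two-sided exact permutation test gave p = 0.1, the smallest it can give with 3 libraries against 3. That test exchanged labels among all 6 libraries and did not keep libraries of the same number together. *Il13ra1* kept the larger number of tags in each of the 6 libraries.

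The ratio of *Il4ra* to *Il13ra1* tags, the chains that form the signaling receptor, was 1.33, 0.952 and 0.965 in IL-11- against 0.93, 0.61 and 0.93 in IL-11+ libraries. The IL-11+ libraries were the lower ones, and replicates 1 and 3 of that group were close to the lowest IL-11- library. The means were 1.08 ± 0.214 and 0.823 ± 0.185 (SD, n = 3, two-sided exact permutation p = 0.1, the smallest possible). Here too, libraries of the same number were not kept together in the permutation.

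The genes of the IL-17 receptor gave fewer tags. *Il17ra*, the common chain of the IL-17 receptors, had 45, 15 and 26 tags in IL-11- against 13, 20 and 27 in IL-11+ libraries. IL-11- replicate 1 was high, and the remaining libraries of both groups were intermixed. The log2 fold change was -0.37 (SE 0.373, 95% interval -1.16 to 0.41, adjusted p = 0.581), and it was 0.17 without IL-11- replicate 1.

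*Il17rc*, the partner chain for IL-17A and IL-17F, had 15, 23 and 11 tags in IL-11- against 14, 15 and 14 in IL-11+ libraries. The IL-11+ libraries lay inside the range of the IL-11- libraries, and the means were 15.01 ± 6.35 and 14.5 ± 0.991 normalized CPM (SD, n = 3). The estimate of -0.04 on the log2 scale (SE 0.373, adjusted p = 0.966) had a 95% interval from -0.82 to 0.74. Its sign turned without IL-11- replicate 2 (0.33), without IL-11+ replicate 3 (0.02) and without a filter on low genes.

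*Il17rd*, also known as Sef and as an inhibitor of fibroblast growth factor signaling, had 15, 28 and 18 tags in IL-11- against 16, 13 and 11 in IL-11+ libraries. IL-11- replicate 2 was high, and the groups overlapped. The log2 fold change was -0.45 (SE 0.361, 95% interval -1.20 to 0.31, adjusted p = 0.481), and it was -0.10 without IL-11- replicate 2 and -0.29 without IL-11+ replicate 3. Of the 50-nt windows in the first 300 nt of its transcripts, 2.30% also occurred in transcripts of other genes, where tags could be shared, and the other tested members had 0 such windows. Together the tags of *Il17ra*, *Il17rc* and *Il17rd* came to 71.6, 62.2 and 45.2 normalized CPM in IL-11- against 45.6, 48.7 and 49.6 in IL-11+ libraries, which overlap.

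Levels of different genes were compared per kilobase of the longest coding transcript (CPM per kb). Tags counted from the 5′ side need not grow in number with length, so these orders rest on an assumption. On this scale the mean level in IL-11- fibroblasts was highest for *Il13ra1* (19.4 ± 1.73), followed by *Stat6* (17.7 ± 1.24) and *Il4ra* (14.7 ± 2.06, SD, n = 3 each). *Il17rc* (6.52 ± 2.76), *Il17ra* (3.37 ± 1.94), *Il17rd* (2.23 ± 0.825) and *Il13ra2* (0.397 ± 0.0324) came after them. For *Il13ra2*, with 1 tag in each IL-11- library, that SD comes from library scaling alone. The SDs of *Il13ra1* and *Stat6*, of *Stat6* and *Il4ra*, and of *Il17ra* and *Il17rd* overlapped and their order was not the same in each library, so these neighbors did not differ beyond their spread. The SDs of *Il17rc* and *Il17ra* overlapped too, but *Il17rc* was above *Il17ra* within each IL-11- library (6.22, 9.41 and 3.92 against 5.54, 1.82 and 2.75 CPM per kb). In normalized CPM, without division by length, the order of the leading genes was another, with *Il4ra* (77.2) before *Il13ra1* (71.9) and *Stat6* (66.8).

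In IL-11+ fibroblasts the order by CPM per kb was *Il13ra1* (37.6 ± 7.55), *Il4ra* (21.8 ± 6.63), *Stat6* (13.1 ± 2.77), *Il13ra2* (9.57 ± 0.982), *Il17rc* (6.29 ± 0.431), *Il17ra* (2.57 ± 0.773) and *Il17rd* (1.64 ± 0.392). By CPM per kb *Il13ra2* was in the last place of 7 in IL-11- and in place 4 in IL-11+ fibroblasts, above the IL-17 receptor genes in each IL-11+ library. In normalized CPM without division by length this did not hold in IL-11+ replicate 3, where *Il17ra* (25.7) was above *Il13ra2* (21.0). The SDs of *Il17ra* and *Il17rd* overlapped and their order was not the same in each library. Those of *Il4ra* and *Stat6* and of *Stat6* and *Il13ra2* overlapped too, but within each IL-11+ library *Il4ra* was above *Stat6* and *Stat6* above *Il13ra2* in CPM per kb. Transcript lengths ran from 2.28 kb (*Il13ra2*) to 8.28 kb (*Il17rd*), and whether 5′ tags scale with length was not tested. Without the division the IL-11+ means of *Il13ra2* (21.8 ± 2.24) and *Il17ra* (19.9 ± 5.99 normalized CPM, SD, n = 3) were close.

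The tested genes whose pattern over the 6 libraries was most like that of *Il13ra2* were *Cxcl5*, *Igfbp5*, *Nrg1*, *Bmp7* and *Abhd17c*. Their Euclidean distances from it were 0.665, 0.71, 0.759, 0.76 and 0.798 in log2 CPM (prior count 2, each gene centered on its mean). On this scale, which draws low counts together, the groups differed by 3.07 for *Il13ra2* and by 2.93 (*Abhd17c*) to 3.39 (*Cxcl5*) for these genes. The fitted log2 fold changes were further apart, 4.43 for *Il13ra2* and 3.11 (*Nrg1*) to 3.43 (*Cxcl5*) for these genes, so the choice depends on the prior count. *Cxcl5*, a neutrophil chemokine, had 125, 158 and 138 tags in IL-11- against 1303, 1725 and 1037 in IL-11+ libraries. *Nrg1*, a ligand of ERBB receptors, had 251, 193 and 159 against 1822, 1532 and 1328 tags, and *Bmp7*, a bone morphogenetic protein, had 24, 18 and 19 against 220, 161 and 136 tags.

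*Il13ra1* (36112110 to 36171259) and *Il13ra2* (147383476 to 147429192) both lie on chromosome X in GRCm38, on opposite strands and far apart. *Il4ra* lies on chromosome 7 (125552120 to 125579474) and *Stat6* on chromosome 10 (127642986 to 127660957). *Il17ra* (120463247 to 120487559) and *Il17rc* (113471427 to 113483140) lie on chromosome 6, and *Il17rd* lies on chromosome 14 (27038941 to 27107286). *Il17re* ends 668 bases before *Il17rc* begins, on the same strand.

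The promoters of *Il13ra1* and *Il13ra2*, the members whose groups did not overlap with IL-11+ fibroblasts above, are shown for the 250 bases before the start site (RefSeq, GRCm38.p6). They differ in base composition, with 70.8% G and C at *Il13ra1* (chrX:36111858-36112107, plus strand) and 36% at *Il13ra2* (chrX:147429193-147429442, minus strand). Promoters were found for 7 of the 8 symbols (not *Il17ra*). Windows from 250 bases before to 50 after the start site were searched for TTCNNNNGAA (the spacing that STAT6 prefers), TTCNNNGAA (the spacing of other STAT factors) and TGANTCA (AP-1), each of which reads the same on both strands. Of 32851 promoters, 6.95%, 8.3% and 7.81% held them. In the 7 members' windows there was 1 match, the AP-1 letters that begin 193 bases before the start site of *Il13ra2*, printed in capitals, and it overlapped no other motif searched. A match is a description of these letters and not a measured binding site.
Il13ra2: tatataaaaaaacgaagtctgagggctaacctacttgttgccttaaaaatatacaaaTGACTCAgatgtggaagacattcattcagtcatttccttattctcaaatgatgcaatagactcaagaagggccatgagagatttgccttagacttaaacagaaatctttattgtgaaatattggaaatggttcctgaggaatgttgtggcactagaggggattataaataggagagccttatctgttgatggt
Il13ra1: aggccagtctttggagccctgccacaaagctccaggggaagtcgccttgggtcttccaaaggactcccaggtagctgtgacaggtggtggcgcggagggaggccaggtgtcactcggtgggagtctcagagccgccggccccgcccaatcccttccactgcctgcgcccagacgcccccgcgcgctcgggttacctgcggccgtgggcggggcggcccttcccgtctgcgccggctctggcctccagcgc

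Of 13 other genes of the IL-4 and IL-13 pathway, 11 had values and 8 were tested, of which 0 were called higher and 1 lower. At an unadjusted p under 0.05, 0 were higher and 3 lower, DESeq2 called 0 and 1, and the median log2 fold change was -0.32. Beside these counts and those of the lists that follow stand the shares over all tested genes, 3.44% called higher and 6.37% lower by edgeR, 12.2% and 14.5% at an unadjusted p under 0.05, and 3.04% and 5.17% by DESeq2, with a median of -0.01. The lower gene was *Socs1*, a feedback inhibitor of JAK kinases, with 30, 31 and 35 tags in IL-11- against 5, 11 and 11 in IL-11+ libraries. It fell from 28.9 ± 0.301 to 8.99 ± 3.21 normalized CPM (SD, n = 3, log2 fold change -1.66, SE 0.334, adjusted p = 0.0017), and the groups did not overlap. With 10 tags asked of all 6 libraries *Socs1* was not tested. *Jak1*, the kinase bound to IL-4Rα, stood at 0.14 (log2 fold change, SE 0.175, adjusted p = 0.66), and *Tyk2*, a kinase bound to IL-13Rα1, gave -0.26 (SE 0.378, adjusted p = 0.718).

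The common γ chain, which pairs with IL-4Rα on blood cells, was barely detected. *Il2rg* had 1, 3 and 9 tags in IL-11- against 2, 1 and 2 in IL-11+ libraries and was not tested, with a ratio of summed tags of 0.43 (95% exact binomial interval 0.12 to 1.28). *Jak3*, its kinase, had 3, 2 and 10 against 3, 3 and 6 tags and was not tested. Without IL-11- replicate 3 *Cish* was also called lower (log2 fold change -1.27), and without IL-11+ replicate 3 *Jak2* was called higher (1.02). Both were chosen after their values were seen.

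The ligands gave few tags in these sorted cells. *Il4*, *Il13*, *Il17f* and *Il25* were not analysed here. *Il17a* and *Il17b* each had 1 tag over the 6 libraries, in IL-11- replicate 2. *Il17d* had 6, 1 and 2 tags in IL-11- against 1, 0 and 0 in IL-11+ libraries, and *Il17c* had at most 2 tags in a library. *Il17rb*, the receptor chain for IL-25, had 1 tag in IL-11- replicate 1 and 1 tag in IL-11+ replicate 2.

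Of 30 other genes of the IL-17 pathway, 28 had values and 21 were tested, of which 0 were called higher and 1 lower (3.44% and 6.37% of all tested genes), with a median log2 fold change of 0.07. At an unadjusted p under 0.05, 1 was higher and 4 were lower, and DESeq2 called 1 and 1. The lower gene was *Arid5a*, an RNA-binding protein that stabilizes inflammatory transcripts, with 117, 121 and 142 tags in IL-11- against 25, 47 and 38 in IL-11+ libraries. It fell by 1.63 on the log2 scale (SE 0.209, adjusted p = 1.96e-05), and the groups did not overlap. With the replicate block *Ikbkg*, a subunit of the IκB kinase complex chosen after its values were seen, was called as well (log2 fold change -1.14, adjusted p = 0.0482, and 0.103 without the block).

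The adaptors and feedback genes named next to the receptor were not called. *Traf3ip2*, which encodes Act1, had 31, 23 and 31 tags in IL-11- against 27, 23 and 37 in IL-11+ libraries (log2 fold change 0.19, SE 0.273, adjusted p = 0.723). *Traf6* stood at 0.12 (log2 fold change, SE 0.296, adjusted p = 0.855), and *Zc3h12a*, an RNase that limits IL-17 responses, gave 0.07 (SE 0.234, adjusted p = 0.885). *Nfkbiz*, a cofactor of NF-κB in IL-17 responses, had 472, 581 and 546 against 357, 371 and 353 tags, and its groups did not overlap, but the difference did not pass the test (log2 fold change -0.41, SE 0.162, adjusted p = 0.107). In the blocked fit its adjusted p was 0.0337 at -0.40, under a fold change of 2 and so not called.

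Just under the fold threshold, *Tnfaip3* and *Cebpd* moved in opposite directions by the adjusted p alone, both chosen after their values were seen. *Tnfaip3*, the ubiquitin-editing inhibitor A20, stood at a log2 difference of 0.99 (SE 0.176, adjusted p = 0.000596). It was called by DESeq2 (1.001), with RLE scaling, with no filter on low genes or 10 tags in 1 library, and without IL-11- replicate 1 (1.05), IL-11- replicate 2 (1.03) or IL-11+ replicate 3 (1.12). *Cebpd*, a transcription factor of the IL-17 response, stood at -0.94 (SE 0.178, adjusted p = 0.00103) and was called without IL-11+ replicate 3 (-1.11) and with scaling by library size alone (-1.01).

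**Figure D2:**
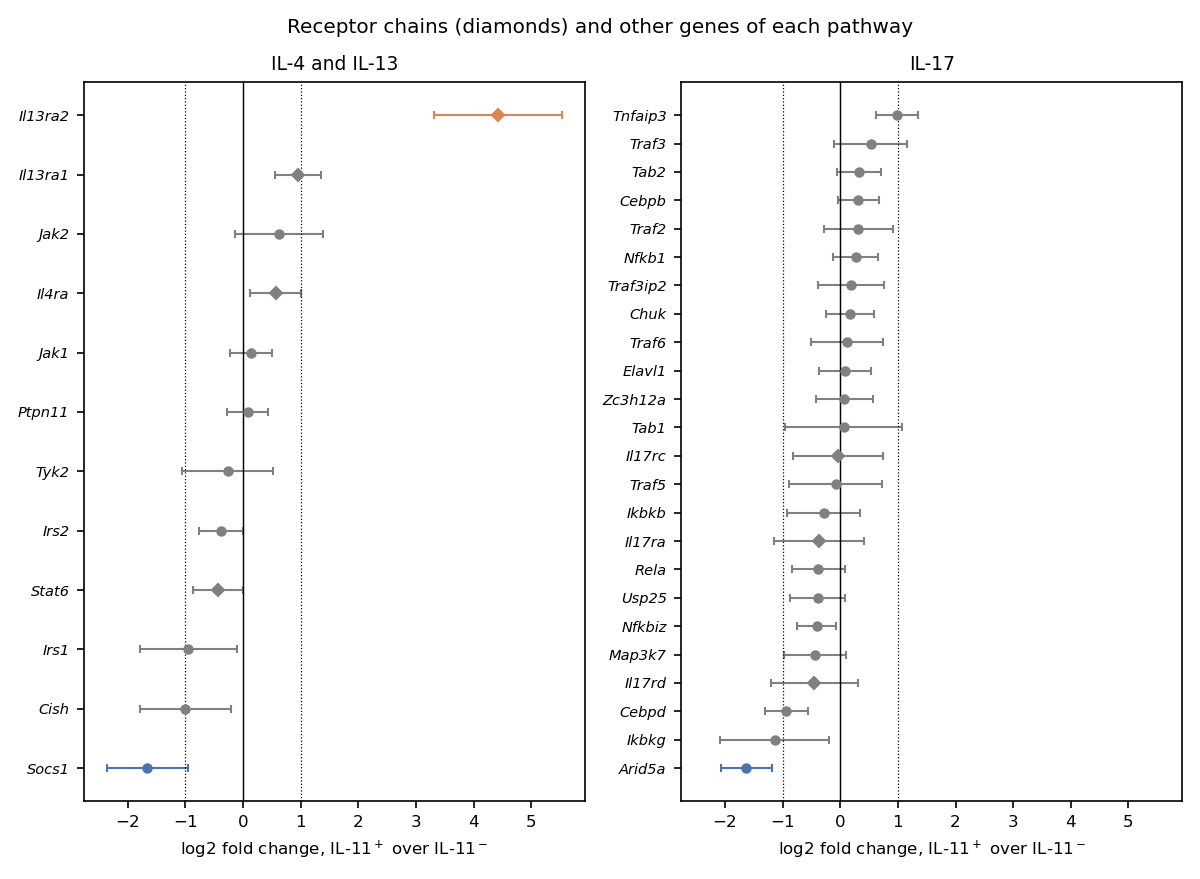
Log2 fold change of IL-11+ over IL-11- fibroblasts (horizontal axes, bars are 95% intervals, n = 3 per group) for tested receptor genes and *Stat6* (diamonds) and other tested genes of the IL-4 and IL-13 pathway (left) and the IL-17 pathway (right). Orange marks a gene called higher, blue a gene called lower and grey a gene not called, and dotted lines mark a fold change of 2. *Il13ra2* at 4.43, *Socs1* at -1.66 and *Arid5a* at -1.63 are the called genes.

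Genes known to respond to IL-4 and IL-13 were few in these libraries. Of 17 listed symbols 12 had values and 6 were tested, of which 1 was called higher and 0 lower (3.44% and 6.37% of all tested genes), with a median log2 fold change of 0.59. At an unadjusted p under 0.05, 3 were higher and 2 lower, and DESeq2 called 1 and 0. *Vcam1*, an adhesion molecule, had 146, 231 and 284 tags in IL-11- against 351, 546 and 475 in IL-11+ libraries, without overlap. It rose from 197 ± 50.3 to 460 ± 91.4 normalized CPM (SD, n = 3, log2 fold change 1.22, SE 0.204, adjusted p = 0.000311).

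The other tested genes of this list did not move in one direction. *Postn*, a matrix protein and a textbook IL-13 response gene, had 561, 668 and 803 tags in IL-11- against 217, 383 and 411 in IL-11+ libraries (log2 fold change -0.85, SE 0.197, adjusted p = 0.00526, not called). *Tgm2*, a transglutaminase, stood at 0.85 (SE 0.185, adjusted p = 0.00318, not called), and it was called without IL-11- replicate 2 (1.04). *Ccl2* (0.79) was called without IL-11- replicate 3 (1.08). *Ccl11* gave 0.39 (adjusted p = 0.324, and 0.0132 with the block) and *Ctgf* gave -0.68 (adjusted p = 0.0427), neither of them called. *Chil1*, a chitinase-like protein with 13, 8 and 8 tags in IL-11- against 0, 0 and 5 in IL-11+ libraries, did not pass the filter and was called lower when no filter was used (-2.28, adjusted p = 0.0184). These 6 genes were chosen after their values were seen.

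Most of the tested genes known to respond to IL-17 were called higher in IL-11+ fibroblasts. Of 26 listed genes 19 had values and 12 were tested, of which 8 were called higher and 0 lower, beside 3.44% and 6.37% of all tested genes. At an unadjusted p under 0.05, 11 were higher and 0 lower, beside 12.2% and 14.5%, and DESeq2 called 8 and 0, beside 3.04% and 5.17%. The list was chosen with earlier results of these data known, so its count is not independent evidence of a direction. Their median log2 fold change was 2.58, beside -0.01 over all tested genes. These genes are also known to respond to IL-1 and TNF, and *Ccl2* is in both response lists.

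*Mmp13*, a collagenase, had 45, 20 and 35 tags in IL-11- against 995, 411 and 1021 in IL-11+ libraries (log2 fold change 4.75, SE 0.335, adjusted p = 2.92e-08). The neutrophil chemokines *Cxcl5* (log2 fold change 3.43, SE 0.221, adjusted p = 1.04e-08) and *Cxcl2* (2.48, SE 0.23, adjusted p = 4.98e-07) rose, as did *Csf3*, the granulocyte growth factor (3.35, SE 0.271, adjusted p = 1.11e-07). *Mmp3*, the gene of stromelysin, rose by 3.39 (SE 0.286, adjusted p = 1.71e-07) and *Saa3*, an acute-phase protein, by 3.11 (SE 0.347, adjusted p = 4.17e-06) on the log2 scale. For each of these genes the groups did not overlap.

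*Lcn2* (2.68) and *Cxcl3* (1.79) were the other called genes of this list, named after their values were seen. *Lcn2*, the gene of an iron-sequestering protein, varied within groups, with 179, 110 and 26 tags in IL-11- against 897, 683 and 253 in IL-11+ libraries, and replicate 3 was the lowest in both. The 4 genes not called, *Cxcl1*, *Ccl2*, *Il6* and *Ccl7*, also named after their values were seen, had log2 fold changes from 0.27 (*Ccl7*) to 0.79 (*Ccl2*), and without IL-11- replicate 3 *Ccl2* (1.08) and *Il6* (1.25) were called.

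**Figure D3:**
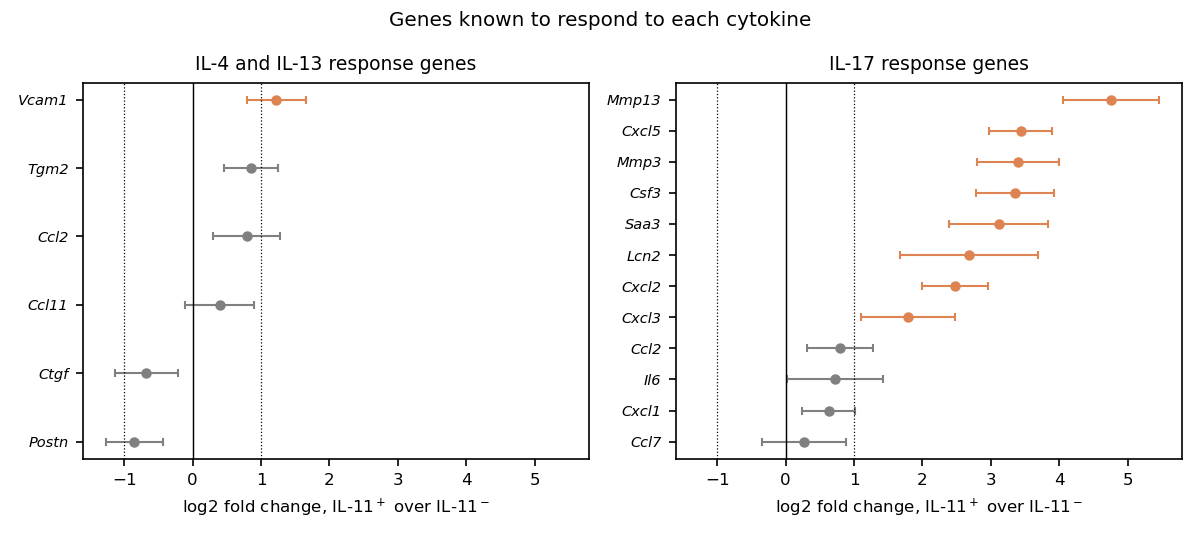
Log2 fold change of IL-11+ over IL-11- fibroblasts (horizontal axes, bars are 95% intervals, n = 3 per group) for tested genes known to respond to IL-4 and IL-13 (left) or to IL-17 (right), with orange for genes called higher, grey for genes not called and dotted lines at a fold change of 2. The response genes of IL-17 run from 0.27 to 4.75, and those of IL-4 and IL-13 from -0.85 to 1.22.

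Markers of other cells moved with the groups. Of 12 smooth muscle and pericyte markers 0 were called higher and 9 lower, beside 3.44% and 6.37% of all tested genes (unadjusted p under 0.05 in 2 and 10, DESeq2 0 and 9). Some of these markers passed the filter only through their tags in IL-11- libraries. With 10 tags asked of all 6 libraries, 8 were tested, 0 called higher and 5 lower, beside 220 and 256 of 7098 genes. The summed level of the 12 markers was 4797, 4902 and 5419 normalized CPM in IL-11- against 1150, 1026 and 1086 in IL-11+ libraries. *Rgs5* gave the most tags of them in each IL-11- library and fell from 1863, 1602 and 1478 to 197, 177 and 196 normalized CPM. *Abcc9*, chosen after its values were seen, gave the most in each IL-11+ library, at 310, 259 and 219 normalized CPM in IL-11- against 497, 397 and 356 in IL-11+ libraries (log2 fold change 0.66, adjusted p = 0.0167, not called). The 3 markers of interstitial cells of Cajal were lower, from 271, 168 and 258 to 21.2, 20.3 and 50.5 normalized CPM in sum. With 10 tags asked of all 6 libraries, 1 of these markers was tested and it was called lower. *Ano1* gave the most tags of them in each IL-11- library (145, 87.6 and 161 normalized CPM) and stood at 1.06, 0 and 14.3 in IL-11+ libraries, where *Etv1* gave the most (20.1, 20.3 and 29.6). *Etv1* was not called without IL-11- replicate 1. Tags of ribosomal RNA (*Rn45s* and *Rn18s*) made up 5.39%, 5.51% and 6.24% of IL-11- against 6.83%, 6.57% and 6.47% of IL-11+ libraries. The part of these cells and of ribosomal RNA in the receptor genes' levels was not tested.

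Fibroblast markers were abundant in both groups. Of 9 tested, 2 were called higher (*Col3a1* and *Pdpn*) and 0 lower, beside 3.44% and 6.37% of all tested genes (unadjusted p under 0.05 in 5 and 1, DESeq2 2 and 0), and the sum was 22122, 22107 and 24635 normalized CPM in IL-11- against 42227, 33957 and 30313 in IL-11+ libraries, with *Dcn* the most abundant in each. Neither called gene was called without IL-11- replicate 1 or with scaling by library size alone, and *Pdpn* was not called without IL-11+ replicate 1. *Thy1*, chosen after its values were seen, was called higher without IL-11- replicate 3 (log2 fold change 1.21) and without IL-11+ replicate 2 (1.003). *Pdgfra*, a defining fibroblast marker, had 742, 661 and 663 against 768, 688 and 705 tags.

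The genes of EpCAM, CD31 and CD45, by which cells were removed in the sort, gave few tags. *Epcam* had 1 tag in IL-11- replicate 1 and 1 in IL-11+ replicate 3, *Pecam1* had 1 tag in all, and *Ptprc* had 1, 2 and 7 against 0, 3 and 0 tags. In each of the epithelial, endothelial and leukocyte lists 1 gene was tested and it was lower, *Lgals4*, *Tek* and *Cd74* in turn. With 10 tags asked of all 6 libraries none of them was tested. *Cd74* was not called by DESeq2, with 10 tags asked of 1 library, nor without any 1 of IL-11- replicates 1, 2 and 3 and IL-11+ replicates 1 and 2. *Lgals4* was not called without IL-11- replicate 3, IL-11+ replicate 1 or IL-11+ replicate 2, and *Tek* not without IL-11+ replicate 2. Tags of erythroid cells, which Ter119 marks, were uneven and not few in IL-11- replicates 1 and 3, at 90.7, 0 and 305 normalized CPM in IL-11- against 19.1, 2.03 and 19.1 in IL-11+ libraries, with 0 of 6 genes tested. *Hbb-bs* gave the most of them over the 6 libraries, with 34, 0 and 141 tags in IL-11- against 5, 0 and 9 in IL-11+ libraries, and the part of these cells in the receptor genes' levels was not tested. With no filter on low genes, and with 10 tags asked of 1 library, 4 globin genes were called lower (*Hba-a1*, *Hba-a2*, *Hbb-bs* and *Hbb-bt*), although the groups overlapped for each and IL-11- replicate 2 had 0 tags of each. *Hba-a1* had an adjusted p of 7.83e-14 with no filter and of 0.00656 with 10 tags in 1 library (log2 fold change -3.72 and -3.75), and near-identical globin genes can share tags. Mesothelial markers summed to at most 10.7 normalized CPM in a library, and 0 of 4 were tested. *Upk3b*, with 2, 0 and 10 tags in IL-11- against 0 in each of the IL-11+ libraries, was called lower with no filter (adjusted p = 0.0316). The globin genes and *Upk3b* were chosen after their values were seen.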

How the data were processed

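RNA of sorted cells (6 libraries, 3 per group) was sequenced by 5′Tag-seq on an Ion Torrent instrument. Reads were trimmed with Cutadapt and aligned with Bowtie2 2.2.5 to the RefSeq transcripts of mm10 by the authors, who deposited tag counts per gene symbol, without normalization. Molecular identifiers and the handling of tags that fit several genes are not given in the sources used here.

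Genes that reached 10 tags in 3 or more libraries were tested in R 4.3.3 with edgeR 4.0.16 (TMM, quasi-likelihood test, Benjamini-Hochberg adjustment over all tested genes). On simulated counts with 200 changed genes, 171 of the 189 that were tested were recovered, with 6 false calls. The simulation had rises and falls in equal number and independent libraries, so unequal changes and paired libraries were not covered. The study used 3 mice, and libraries of the same number were taken as 1 mouse in the fit with the replicate block, since their deviations from group means correlated (r = 0.232, 0.201 and 0.272 across 5064 genes, which are not independent replicates). The other fits, the main one included, left this pairing out. Their p-values measure the spread between libraries as if each came from its own mouse.

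Members and lists were chosen with earlier results of these data known. Named genes were the members, *Il11*, up to 6 called genes per list with the smallest p, 10 genes next to the receptors (*Il2rg*, *Jak1*, *Jak3*, *Tyk2*, *Socs1*, *Il17rb*, *Traf3ip2*, *Traf6*, *Nfkbiz* and *Zc3h12a*) whatever their values, and the 5 genes nearest to a called member. Named outside this rule were defining markers of sorted cells (*Pdgfra*, *Epcam*, *Pecam1* and *Ptprc*), the ligand genes, the genes most abundant in a marker list (*Dcn* and *Abcc9*) and genes chosen after their values were seen (*Cish*, *Jak2*, *Ikbkg*, *Tnfaip3*, *Cebpd*, *Postn*, *Tgm2*, *Ccl2*, *Ccl11*, *Ctgf*, *Chil1*, *Lcn2*, *Cxcl3*, *Cxcl1*, *Il6*, *Ccl7*, *Thy1*, *Upk3b* and the globin genes). One list of marker genes is not reported here.

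Positions and transcripts come from GENCODE mouse release 21 (GRCm38). Alternatives were RLE, library size alone, iterative TMM with 3 rounds (quasi-likelihood or exact test), DESeq2 1.42.0, other filters, the block, thinned counts, each library left out and the adjusted p alone.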

Additional observations from a re-analysis of the deposited data

How the results depend on the processing

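*Il13ra2* was called higher in each of the 15 alternatives that tested it (log2 fold change 4.30 to 4.61). With at least 10 tags required in all 6 libraries it was not tested, which left 0 members called higher and 256 genes called lower. By the adjusted p alone, 638 genes and 2 members were called higher. Leaving out 1 library at a time gave 1 to 2 members called higher, the added one being *Il13ra1* without IL-11- replicate 2 or IL-11+ replicate 3. The count of members called lower was 0 in each alternative. The log2 fold change of *Il17ra* ran from -0.65 to 0.17 as libraries were left out, positive without IL-11- replicate 1. That of *Il17rc* ran from -0.31 to 0.33 and was 0.0016 with no filter on low genes. The cause of these shifts was not tested. *Il13ra1*, *Il4ra*, *Stat6* and *Il17rd* kept their direction in each of 16 alternatives. The value of *Il17rd* ran from -0.63 to -0.10 among them. The replicate block changed no member's call, and scaling by library size alone moved the median of all tested genes to -0.10 (log2). Depth limits the precision for *Il13ra2*, with 1 tag in each IL-11- library, and for the IL-17 receptor genes, with 11 to 45 tags in a library.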
